A study of Mus musculus with 4 samples.

Results

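The 10 genes Ehd1, Ctla2a, Cspg4, Pla2g7, Igfbp5, Htr2b, Xdh, Cd72, Selenoh and Nrap were followed through 4 single-cell libraries of mouse brain myeloid cells. They were taken by symbol from the 32285 genes of the deposited count matrices, and they were chosen by their measured UMI levels, which were higher in both PRMT1-deficient libraries in separate microglial states. The genotype difference is therefore what selected them: their levels in the 2 genotypes are given as a description, without a test, and the questions asked are which cells carried the transcripts and whether the transcripts were found in the same cells.

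PRMT1 is an arginine methyltransferase, and the study set out to remove it from microglia with a tamoxifen-inducible Cre. All mice were on the C57BL/6 background and carried floxed Prmt1 alleles. The PRMT1Cx3cr1-KO mice also carried Cx3cr1CreERT, which is active in microglia and in other cells that express the fractalkine receptor. PRMT1FL mice, for which no Cre is named, served as controls; the study's methods give tamoxifen to both genotypes. The labels give an age of 5 to 6 weeks, which by the methods is the age at tamoxifen, and the diet began some weeks after it. All mice received 0.2% cuprizone, a copper chelator that kills oligodendrocytes and strips myelin, for 5 weeks. Whole brains were then dissociated, and CD45+ CD11b+ cells were sorted and made into 1 droplet library per mouse, 2 mice per genotype, so an exact two-sided permutation test between genotypes could not go below p = 0.333 for any single value.

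Microglia are the resident macrophages of the brain. During demyelination they take up myelin debris, handle its lipid in lysosomes and endosomes, proliferate, and pass through states that differ in cytokine, interferon and lysosomal gene expression. The 10 genes belong to different parts of this biology. Htr2b encodes a serotonin receptor that couples to Gq, and Cd72 encodes an inhibitory receptor that binds semaphorin 4D. Cspg4, the NG2 proteoglycan, is a surface molecule best known from oligodendrocyte precursors and pericytes. Igfbp5 is a secreted binding protein for insulin-like growth factors. Pla2g7, the platelet-activating factor acetylhydrolase, is a secreted phospholipase that cuts oxidised phospholipids, and Ctla2a is an inhibitor of cysteine proteases that resembles the propeptide of cathepsins. Ehd1 is an ATPase of endocytic recycling, Xdh oxidises purines to uric acid, Selenoh is a nucleolar selenoprotein, and Nrap is an anchoring protein known from striated muscle.

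The 4 libraries held 8284 to 11554 barcodes and 76943248 to 99559644 unique molecular identifiers (UMIs, each counting 1 captured transcript). After the study's stated limits on genes and mitochondrial share, 40869 cells remained, of which 39467 lay in 8 microglial clusters, 95.0 to 98.0% of each library, with a median of 6254 to 7115 UMIs per microglial cell. Any 2 libraries shared 31 to 46 barcodes. The 8 markers of microglia summed to between 24242 and 27002 CPM (the UMIs of a gene scaled to a fixed total of UMIs of the summed microglia, counts per 1e6) in every mouse, with none at 0. Prmt1 itself was at 91.1 and 83.9 CPM in PRMT1FL mice 1 and 2 and at 70.3 and 70.8 in PRMT1Cx3cr1-KO mice 1 and 2, a log2 difference of -0.38 (SE 0.07, edgeR adjusted p = 0.0764), so a lower level was measured but did not pass the threshold of 0.05. How much of the remaining transcript came from cells without recombination was not tested. These are RNA levels. By immunoblot, the study reported loss of PRMT1 protein in microglia isolated from PRMT1Cx3cr1-KO mice.

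In the sums over microglia, all 10 genes stood above both PRMT1FL levels in each PRMT1Cx3cr1-KO mouse, with a median log2 difference of 1.17 against -0.004 over the 13843 genes tested. This count is fixed by the choice of the genes. Over all genes, 38.7% were separated in this direction, and 0.441% were called higher by edgeR. In sums of this kind, more cells with a transcript and more transcript per cell cannot be told apart, and the values per state and per cell below give what can be separated. Beside these values, the 6 markers of border macrophages summed to 32.5 and 31.9 CPM in the microglia of PRMT1FL mice and to 60.1 and 158 CPM in those of PRMT1Cx3cr1-KO mice, with none of the 6 at 0. This list includes Ms4a7, which is also a leading gene of a microglial cluster described below (B1-like). The 4 monocyte markers of the study's cluster F, among them Mrc1 and F13a1 of the border list, summed to 3.82, 3.94, 5.44 and 8.50 CPM in the same order. The 5 erythroid markers summed to 242 and 94.2 CPM in PRMT1FL mice and to 0.0613 and 0.0214 CPM in PRMT1Cx3cr1-KO mice, where 4 and 3 of the 5 were at 0. The 6 proliferation markers summed to 147 and 146 against 202 and 295 CPM. Their part in the members' levels was not tested. The 6 markers of oligodendrocyte precursors stayed at 0.392 to 0.625 CPM and the 6 of pericytes at 0.329 to 0.795 CPM in every mouse.

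Among the surface receptors, Htr2b (ENSMUSG00000026228, chr1:86099026-86111970 in GRCm38, minus strand) was at 5.03 and 4.61 CPM in the microglia of PRMT1FL mice 1 and 2 and at 11.7 and 13.8 CPM in PRMT1Cx3cr1-KO mice 1 and 2, a log2 difference of 1.33 (SE 0.11). Cd72 (ENSMUSG00000028459, chr4:43446462-43454628, minus strand) was at 110, 119, 138 and 141 CPM in the same order, a log2 difference of 0.21 (SE 0.07). Cspg4 (ENSMUSG00000032911, chr9:56865033-56899870, plus strand) was at 46.3, 42.8, 76.0 and 86.0 CPM, a log2 difference of 0.79 (SE 0.08). The genotypes did not overlap for any of these genes, and the gap was narrowest for Cd72. Htr2b lies wholly inside the span of Psmd1 on the other strand (12945 shared bases), and Cd72 shares 1603 bases with Tesk1 in the same way. The sources used here do not state whether counting used strand.

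Pla2g7 had the widest gap among the 10 genes. Its level (ENSMUSG00000023913, chr17:43568098-43612201, plus strand) was 5.92 and 6.83 CPM in PRMT1FL mice but 34.2 and 57.9 CPM in the knockouts, a log2 difference of 2.78 (SE 0.24). Igfbp5 (ENSMUSG00000026185, chr1:72857932-72874884, minus strand), the other secreted regulator, was at 4.51 and 3.72 against 13.50 and 19.997 CPM, a log2 difference of 1.94 (SE 0.19). Ctla2a (ENSMUSG00000044258, chr13:60934155-60936625, minus strand) was at 61.2 and 58.1 against 111 and 136 CPM, a log2 difference of 0.97 (SE 0.09). For Pla2g7 and Igfbp5 the second PRMT1Cx3cr1-KO mouse stood well above the first, and the spread within that genotype was wider than within the controls. Ctla2a shares sequence with its neighbour Ctla2b: between 7.10 and 20.6% of the 50-base windows of its transcripts, and 0 to 20.1% of those in their last 500 bases, also occur in Ctla2b, so the split of reads between both genes is uncertain.

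The genes of the cell interior showed the same order. Ehd1 (ENSMUSG00000024772, chr19:6276725-6300096, plus strand) was at 13.9 and 11.9 CPM in PRMT1FL and 32.4 and 37.2 CPM in PRMT1Cx3cr1-KO microglia, a log2 difference of 1.36 (SE 0.10). Xdh (ENSMUSG00000024066, chr17:73883895-73950196, minus strand) was at 3.96 and 3.43 against 9.39 and 9.73 CPM, a log2 difference of 1.29 (SE 0.10). The mice of a genotype lay close together for both genes. Selenoh (ENSMUSG00000076437, chr2:84669215-84670770, minus strand) was at 30.1 and 33.6 against 48.5 and 64.1 CPM, a log2 difference of 0.75 (SE 0.12). Nrap (ENSMUSG00000049134, chr19:56320035-56390037, minus strand) was at 4.68 and 4.73 against 9.20 and 11.2 CPM, a log2 difference of 1.04 (SE 0.11). Nrap shares 788 bases with Habp2 on the other strand.

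**Figure D1:**
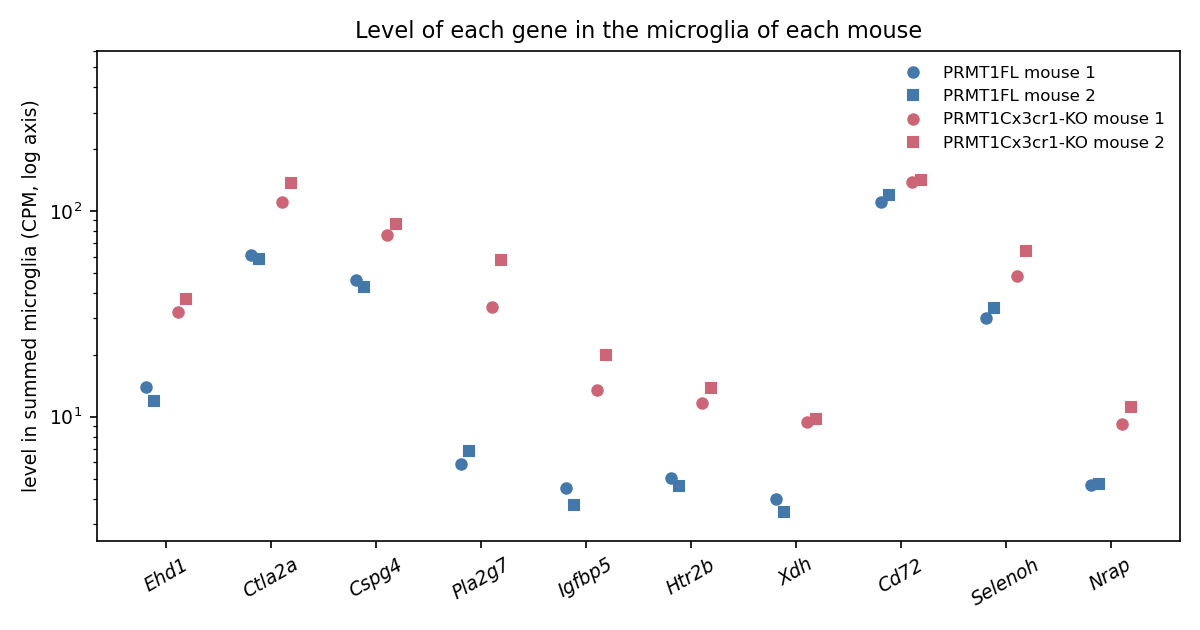
Level of each of the 10 genes in the summed microglia of each mouse, in CPM on a log axis, with 1 point per mouse and 2 mice per genotype. Every gene is higher in both PRMT1Cx3cr1-KO mice, from 34.2 and 57.9 against 5.92 and 6.83 CPM for Pla2g7 to 138 and 141 against 110 and 119 CPM for Cd72.

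The share of cells that held a transcript was higher as well. For Ctla2a, 23.2 and 22.4% of PRMT1FL microglia and 31.8 and 40.5% of PRMT1Cx3cr1-KO microglia held at least 1 UMI, and once cells were thinned to 2000 UMIs each, these shares became 8.42, 7.18, 14.0 and 17.8%. For Pla2g7 the shares were 3.94, 4.88, 12.9 and 20.3%, and 1.32, 1.58, 6.46 and 9.78% after thinning. For Igfbp5 they were 1.54, 1.44, 4.67 and 7.75%, and 0.489, 0.277, 1.62 and 2.77% after thinning. At equal depth the genotypes stayed apart for these genes. These shares restate the higher levels that chose the genes and are given as a description. As background, each transcript was set against a cell type in which it was rare or not seen. Other types outside the microglia carried several of the transcripts and are given further below. Ctla2a was seen in 2 of 199 astrocyte-like cells (1.01%, median 2600 UMIs), and Pla2g7 and Igfbp5 in 0 of 73 endothelial-like cells (median 2130 UMIs), which allows a share of up to 4.11%. For Igfbp5 the thinned shares of every mouse lie below that limit, as do those of Pla2g7 in both PRMT1FL mice, so these shares could not be set apart from free RNA by this comparison. Xdh was seen in 2.85, 2.83, 6.31 and 6.76% of microglia and in 0 of 199 astrocyte-like cells, which allows up to 1.51%; after thinning its shares were 0.659, 0.609, 1.76 and 1.62%, below that limit in both PRMT1FL mice and just above it in both PRMT1Cx3cr1-KO mice. Cspg4 was seen in 16.9, 17.5, 26.3 and 31.5% of microglia and Htr2b in 3.16, 2.92, 6.69 and 8.73%, and neither in any of the 73 endothelial-like cells; the thinned shares of Htr2b, 0.829, 0.484, 1.65 and 2.23%, also lie below the 4.11% that this allows. For Cd72 the shares of 39.3, 44.8, 43.9 and 47.5% overlapped between genotypes before thinning and those of 17.1, 19.0, 19.99 and 21.1% after thinning did not.

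The 8 microglial states were found by clustering without the 10 genes and without other genes that differed between genotypes, 1200 genes in all. Differences carried by those genes alone could not set states apart, and the values within states rest on this choice. The states carried the transcripts unequally. They were a cluster led by Gpnmb and Baiap2l2 (15574 cells, median 8963 UMIs), a D/E-like cluster with homeostatic markers that was led by Il7r, Gdf15 and Crybb1 (8685 cells, 3804 UMIs), a cluster led by haemoglobin transcripts with Cox6a2 among its markers (5951 cells, 4297 UMIs), a cluster led by Dusp2, Il12b and Cxcl2 (3826 cells, 10048.5 UMIs), a pair of A1-like proliferating clusters (2358 and 1772 cells), an interferon-like cluster (804 cells) and a B1-like cluster with Ms4a7 and Clec12a (497 cells). The B1-like cluster held 20, 9, 67 and 401 cells of the 4 mice, so most of it came from PRMT1Cx3cr1-KO mouse 2 and its control values rest on few UMIs. Haemoglobin led the Cox6a2 cluster through the PRMT1FL libraries, as the erythroid markers stood at 0.0613 and 0.0214 CPM in PRMT1Cx3cr1-KO microglia. The haemoglobin name therefore does not describe the 1261 and 1580 cells of that cluster from the PRMT1Cx3cr1-KO mice.

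Pla2g7 was a transcript of the D/E-like cells in the PRMT1Cx3cr1-KO mice and not in the controls. In that cluster it was at 5.45 and 6.07 CPM in PRMT1FL mice (47 and 51 UMIs) and at 143 and 189 CPM in PRMT1Cx3cr1-KO mice (1757 and 3167 UMIs), 28.8-fold by the means. In the haemoglobin and Cox6a2 cluster it was at 5.74 and 5.06 against 48.5 and 89.7 CPM, 12.8-fold. In the Gpnmb and Baiap2l2 cluster it was at 5.98 and 7.23 against 11.95 and 20.1 CPM, and in the Il12b and Cxcl2 cluster at 7.02 and 9.51 against 12.2 and 14.2 CPM. The 2 genotypes thus lay far apart in D/E-like cells and closer together in these last clusters. Control Pla2g7 UMIs could not be set apart from free RNA, so the folds of 28.8 and 12.8 rest on control levels that could be background. D/E-like cells held 3.59 and 4.50% of all Pla2g7 UMIs of the PRMT1FL libraries and 58.3 and 54.4% of those of the PRMT1Cx3cr1-KO libraries. In the B1-like cluster the order was not kept: Pla2g7 was at 151 and 74.8 CPM in the controls (12 and 4 UMIs) and at 119 and 89.9 CPM in PRMT1Cx3cr1-KO mice.

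Ehd1 was highest in the Il12b and Cxcl2 cluster in every mouse except PRMT1FL mouse 2, whose 9 B1-like cells read higher. There it was at 33.2 and 31.9 CPM in PRMT1FL and 62.4 and 82.8 CPM in PRMT1Cx3cr1-KO mice. The gap was widest in D/E-like cells, at 4.06 and 3.33 against 32.1 and 45.1 CPM, 10.4-fold by the means, so that D/E-like cells went from the lowest state for Ehd1 in the controls to the state just behind the Il12b and Cxcl2 cluster. In the Gpnmb and Baiap2l2 cluster Ehd1 was at 11.3 and 9.17 against 23.1 and 29.5 CPM. Xdh also had its largest fold in D/E-like cells, at 2.09 and 2.02 against 9.73 and 13.9 CPM, and its level pooled over mice was lowest in the haemoglobin and Cox6a2 cluster, at 1.497 and 1.31 against 1.75 and 3.28 CPM. In interferon-like cells Xdh was at 10.4 and 7.401 against 24.0 and 26.2 CPM.

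Ctla2a and Cspg4 had another distribution, with low levels in D/E-like cells of both genotypes. The fold of Ctla2a was still larger there than in the Gpnmb and Baiap2l2 cluster. That of Cspg4 was larger there than in the Il12b and Cxcl2 cluster. Ctla2a was highest in the second A1-like cluster, at 99.0 and 101 CPM in PRMT1FL and 193 and 200 CPM in PRMT1Cx3cr1-KO mice, and it was at 66.2 and 64.0 against 128 and 162 CPM in the Gpnmb and Baiap2l2 cluster. In D/E-like cells it was at 15.1 and 15.6 against 43.5 and 59.0 CPM. Ctla2a was higher in both PRMT1Cx3cr1-KO mice in 8 of 8 states, the only one of the 10 genes for which this held. Cspg4 was at 65.5 and 83.2 against 109 and 109 CPM in the first A1-like cluster, at 50.8 and 47.8 against 96.8 and 119 CPM in the Il12b and Cxcl2 cluster, and at 7.19 and 5.95 against 21.8 and 32.7 CPM in D/E-like cells. In B1-like cells Cspg4 was at 0 in 3 of the 4 mice and at 12.02 CPM in PRMT1Cx3cr1-KO mouse 2.

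Igfbp5 and Htr2b had most of their UMIs in the Gpnmb and Baiap2l2 cells, which are also the largest cluster: they held 55.9 to 64.2% of all Igfbp5 UMIs and 50.99 to 69.1% of all Htr2b UMIs of a library, and 54.5, 54.9, 41.8 and 40.4% of the UMIs of all genes. By level pooled over mice, other clusters were close or higher. Igfbp5 was at 13.1 CPM there and 13.7 CPM in the first A1-like cluster, and Htr2b at 10.7 CPM there, 10.2 CPM in the first A1-like, 10.6 CPM in the interferon-like and 18.4 CPM in the B1-like cluster. In that cluster Igfbp5 was at 5.28 and 4.64 against 18.4 and 27.5 CPM, and Htr2b at 6.26 and 5.42 against 14.1 and 18.8 CPM. The fold of Igfbp5 was larger in the Il12b and Cxcl2 cluster, at 2.45 and 2.08 against 11.6 and 21.7 CPM. In D/E-like cells both transcripts were low, Igfbp5 at 3.94 and 0.95 against 5.52 and 6.62 CPM and Htr2b at 0.93 and 0.24 against 3.97 and 6.201 CPM. The fold of Htr2b was larger there than in the Gpnmb and Baiap2l2 cluster, and that of Igfbp5 was smaller. In interferon-like cells Htr2b was at 4.02 and 3.42 against 13.4 and 27.7 CPM.

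Selenoh followed the proliferating cells. It was at 109 and 120 CPM in PRMT1FL and 133 and 141 CPM in PRMT1Cx3cr1-KO mice in the first A1-like cluster, and at 93.3 and 144 against 127 and 139 CPM in the second, where the genotypes overlapped. In the Gpnmb and Baiap2l2 cluster it was at 22.7 and 25.4 against 37.2 and 50.04 CPM. Nrap was at 7.24 and 11.6 against 11.2 and 12.2 CPM in the first A1-like cluster, where the genotypes overlapped, and at 3.97 and 3.61 against 10.9 and 16.3 CPM in the Il12b and Cxcl2 cluster. Cd72 was the most even of the 10 genes. It lay between 90.4 and 168 CPM in every mouse in the Gpnmb, haemoglobin, Il12b and A1-like clusters, and it was lowest in D/E-like cells, at 46.5 and 69.1 against 68.2 and 74.2 CPM, where the genotypes overlapped. Its largest fold was in interferon-like cells, at 129 and 138 against 215 and 224 CPM.

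Counted by state, 10 of the 10 genes were higher in both PRMT1Cx3cr1-KO mice in the Gpnmb and Baiap2l2, the haemoglobin and Cox6a2, the Il12b and Cxcl2 and the interferon-like clusters, 9 in the D/E-like and the first A1-like cluster, 8 in the second A1-like cluster and 1 in the B1-like cluster. Over all genes with at least 10 UMIs the share was 30.4, 34.3, 32.4, 19.9, 28.5, 23.6, 21.7 and 25.1% in the same order. Ehd1, Cspg4, Pla2g7, Igfbp5 and Htr2b were higher in 7 of the 8 states and Xdh, Cd72, Selenoh and Nrap in 6. Over all genes with at least 100 UMIs, 0.436% were higher in 8 of 8 states and 2.54% in 7 or more. These counts, too, restate how the genes were picked.

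**Figure D2:**
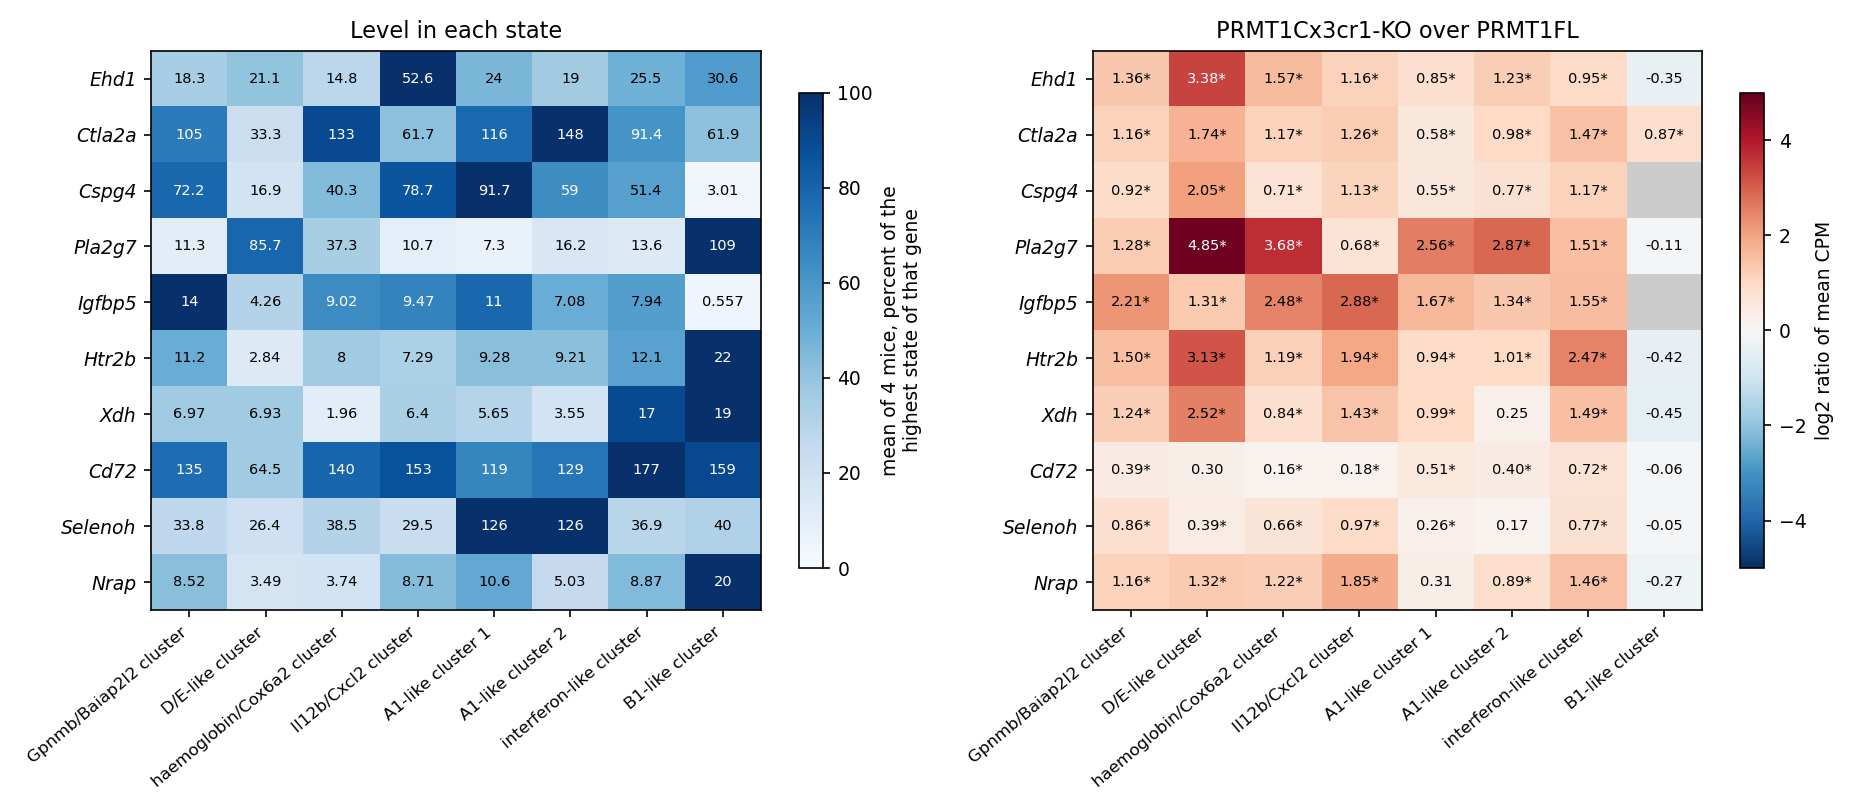
The 10 genes in the 8 microglial states, with the mean level over the 4 mice in CPM and the log2 fold of PRMT1Cx3cr1-KO over PRMT1FL means. Pla2g7 and Ehd1 have their largest folds in D/E-like cells (28.8 and 10.4), and Selenoh its highest levels in the A1-like clusters. In D/E-like cells 9 of the 10 genes, all except Cd72, were higher in both PRMT1Cx3cr1-KO mice. Control Pla2g7 UMIs could not be set apart from free RNA.

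The states' shares of the cells differed between the mice, so each genotype difference was split into a part at fixed shares of UMIs per state and a part from the change in shares. The part at fixed shares was 121% of the difference for Cd72, 95.5 to 108% for Ehd1, Ctla2a, Cspg4, Igfbp5, Htr2b, Xdh and Nrap, 87.1% for Pla2g7 and 72.0% for Selenoh, with a median of 103%. A value above 100% means that the change in shares alone ran the other way. The genes were picked for being higher within separate states, so a large part at fixed shares follows from that choice, and these values are a description. Selenoh was the gene for which the shares contributed most, and the states in which it is high are the proliferating ones.

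Whether the transcripts were found together was asked within mice, which the choice of the genes did not use. Each microglial cell with 2000 UMIs or more was thinned to 2000 UMIs, the cells with a UMI of 1 gene were set against the cells without, both sides were summed per mouse, and the other genes were compared with edgeR with the mouse as a block and with p adjusted over all genes of that fit. Of the 90 ordered pairs, 29 were called higher and 12 lower. As background, the share of all genes called higher was 15.7% in the split by Ctla2a, 9.56% by Cspg4, 7.99% by Selenoh, 6.26% by Cd72, 4.98% by Pla2g7, 1.31% by Ehd1, 1.31% by Htr2b, 0.648% by Igfbp5, 0.213% by Nrap and 0.0975% by Xdh. The share called lower was 11.6% for Ctla2a, 8.45% for Cspg4, 6.44% for Pla2g7, 4.53% for Selenoh, 4.52% for Cd72, 2.3% for Htr2b, 1.76% for Igfbp5, 1.07% for Nrap, 0.692% for Ehd1 and 0.434% for Xdh. Without PRMT1Cx3cr1-KO mouse 2, 5 pairs were called lower. Of the 45 unordered pairs, 12 were called higher in both directions and 6 lower in both directions.

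Ctla2a, Cspg4, Igfbp5 and Htr2b were each higher in the cells that held another of them, and all 12 ordered pairs among the 4 were called higher; these 4 were singled out after the pairs were seen. In cells with a Ctla2a UMI, Cspg4 was at 61.0, 42.4, 80.9 and 97.1 CPM in PRMT1FL mice 1 and 2 and PRMT1Cx3cr1-KO mice 1 and 2, against 29.8, 28.6, 55.5 and 62.1 CPM in cells without, a log2 difference of 0.84 (SE 0.08, edgeR adjusted p = 2.38e-15). All 4 mice were higher with Ctla2a. The reverse held too: in cells with a Cspg4 UMI, Ctla2a was at 106, 64.2, 123 and 184 CPM against 47.1, 43.4, 89.6 and 115 CPM, a log2 difference of 0.71 (SE 0.07, edgeR adjusted p = 3.92e-12). The difference had the same direction in each control mouse and each PRMT1Cx3cr1-KO mouse.

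The largest positive differences among the 90 pairs were those between the rarer transcripts of this group, Igfbp5 and Htr2b. In cells with an Igfbp5 UMI, Htr2b was at 30.6, 25.0, 40.5 and 37.3 CPM (3, 1, 12 and 20 UMIs) against 4.31, 2.71, 8.17 and 11.2 CPM, a log2 difference of 2.04 (SE 0.34, edgeR adjusted p = 1.10e-06). The reverse split, by Htr2b, put Igfbp5 at 24.1, 28.6, 36.4 and 55.6 CPM against 2.92, 1.74, 10.6 and 15.7 CPM, a log2 difference of 1.99 (SE 0.32, edgeR adjusted p = 1.03e-07). The control values rest on 1 to 4 UMIs a mouse, and neither of these calls remained when each cell was thinned to 1000 UMIs (edgeR adjusted p = 0.753 and 0.606). By the comparison with endothelial-like cells, a UMI of Igfbp5 or Htr2b could not be set apart from free RNA in any mouse. With only 73 such cells, the comparison could not decide the question either way. This limit holds for every split by these genes. Both transcripts were lower in D/E-like than in Gpnmb and Baiap2l2 cells of every mouse, as given above. What these levels mean for free RNA was not tested.

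Ctla2a was also called higher in the cells of both rarer transcripts. In cells with an Igfbp5 UMI, Ctla2a was at 194, 175, 264 and 246 CPM against 49.7, 44.1, 90.1 and 119 CPM, a log2 difference of 1.36 (SE 0.15, edgeR adjusted p = 2.65e-16). With an Htr2b UMI it was at 175, 229, 202 and 225 CPM against 49.3, 43.6, 91.1 and 120 CPM, a log2 difference of 1.25 (SE 0.14, edgeR adjusted p = 3.80e-17). The Ctla2a levels of the genotypes overlapped in Htr2b cells and did not overlap in the other cells. In cells with a Cspg4 UMI, Igfbp5 was higher by 1.34 (SE 0.20) and Htr2b by 1.28 (SE 0.20) on the log2 scale. Each of these calls remained under every alternative that was run, while Cspg4 was no longer called in Igfbp5 cells with mouse and state together as a block (edgeR adjusted p = 0.119) and in Htr2b cells thinned to 1000 UMIs (edgeR adjusted p = 0.0785). Whether a pair differed between genotypes was asked with the interaction term, which called 6 of the 90 ordered pairs, 4 of them with Cd72; over all genes of the 10 splits it called 0.251% higher and 0.396% lower.

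**Figure D3:**
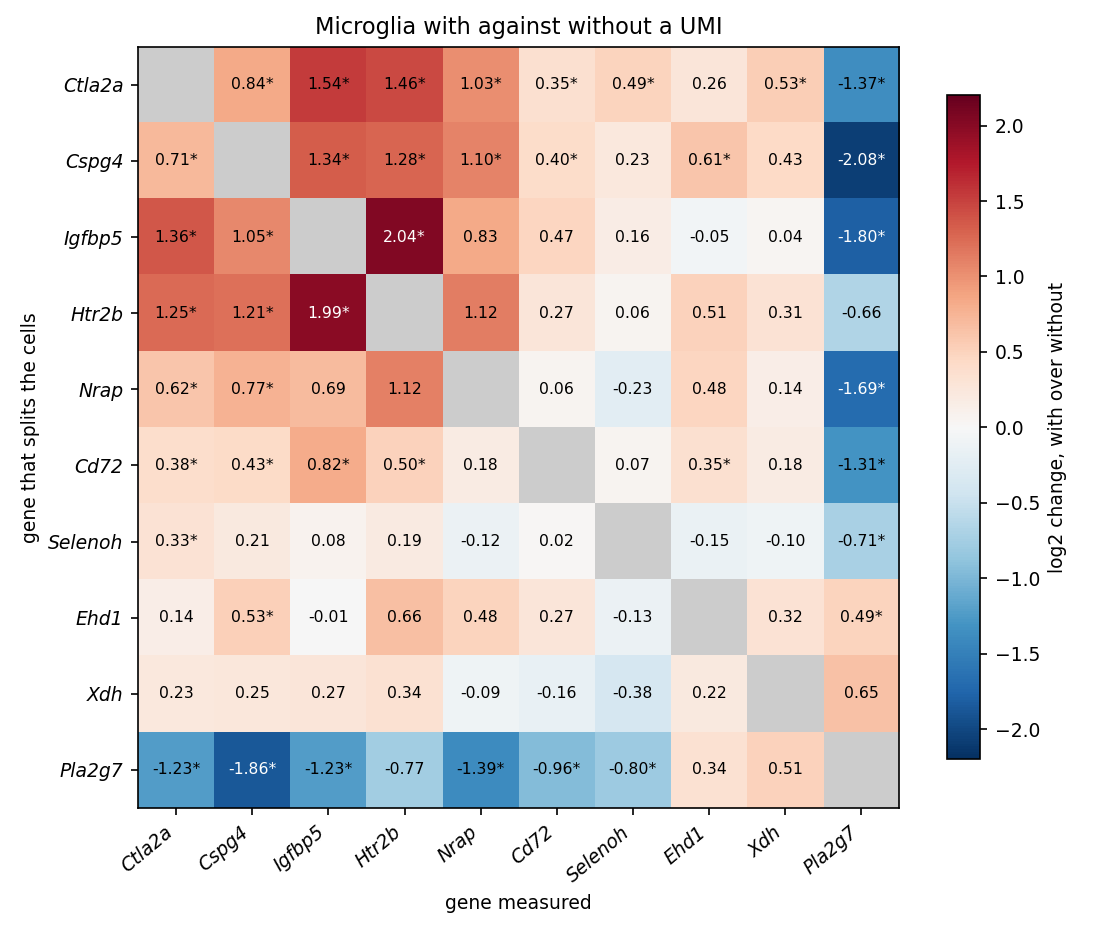
Log2 difference of each gene (columns) in microglia that held a UMI of another gene (rows) against those that did not, at 2000 UMIs per cell with the mouse as a block, with called pairs marked. Ctla2a, Cspg4, Igfbp5 and Htr2b form a block of positive values from 0.71 to 2.04, and the Pla2g7 column is negative for all splits except Ehd1 and Xdh.

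Pla2g7 was called lower in cells with Ctla2a, Cspg4 or Igfbp5. With Htr2b it was called in neither direction. In Htr2b cells Pla2g7 was at 6.02, 0, 26.5 and 50.9 CPM against 6.95, 8.76, 48.4 and 77.3 CPM in cells without. Pla2g7 was on 1 side of all 12 pairs that were called lower. Where Cspg4 was seen, Pla2g7 was at 1.79, 5.35, 14.4 and 16.2 CPM against 7.24, 8.91, 51.7 and 84.6 CPM in cells without, a log2 difference of -2.08 (SE 0.15, edgeR adjusted p = 1.46e-18). All 4 mice were lower with Cspg4, the PRMT1FL mice on 2 and 4 Pla2g7 UMIs. Where Pla2g7 was seen, Cspg4 was at 7.58, 26.3, 19.5 and 19.0 CPM against 32.7, 29.6, 61.8 and 73.7 CPM (log2 -1.86, SE 0.18), and Ctla2a was at 45.5, 26.3, 35.6 and 60.1 CPM against 50.4, 44.8, 96.9 and 129 CPM (log2 -1.23, SE 0.15). The Cspg4 values of the PRMT1FL mice in this split rest on 2 and 6 UMIs. A Pla2g7 UMI in a control cell could not be set apart from free RNA, so the control values are not read on their own. By the same comparison, an Igfbp5 UMI could not be set apart from free RNA in any mouse. Pla2g7 was also lower in cells with a UMI of Ctla2a (log2 -1.37, SE 0.12), Igfbp5 (-1.80, SE 0.34), Nrap (log2 -1.69), Cd72 (log2 -1.31) and Selenoh (log2 -0.71). These fitted values did not hold in every mouse: in the PRMT1FL mice Pla2g7 was at 10.2 and 25.0 CPM with Igfbp5 against 6.92 and 8.68 CPM without, and at 7.89 and 8.75 CPM with Cd72 against 6.74 and 8.71 CPM without. Of 11 alternatives the call was lost in 3 for Igfbp5, 4 for Nrap, 3 for Selenoh and 1 for Cd72; leaving out PRMT1Cx3cr1-KO mouse 2 was among them for the first 3. Its lower level with Ctla2a and with Cspg4, and theirs with Pla2g7, were called under every alternative, also with mouse and state together as a block, which compares cells of the same state.

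For Ehd1 and Xdh few pairs were called. In cells with an Ehd1 UMI, Cspg4 was at 50, 79.6, 96.8 and 72.5 CPM against 32.0, 28.8, 57.0 and 68.1 CPM, a log2 difference of 0.53 (SE 0.12, edgeR adjusted p = 0.00154), and in cells with a Cspg4 UMI Ehd1 was higher by 0.61 (SE 0.13). The first call was lost in 4 of 11 alternatives (edgeR adjusted p up to 0.842) and the second in 2 of 11; both calls were lost without PRMT1Cx3cr1-KO mouse 1 and at 1000 UMIs. Pla2g7 was at 4.76, 13.3, 85.1 and 89.6 CPM in cells with Ehd1 against 6.98, 8.65, 46.0 and 75.9 CPM (log2 0.49, SE 0.13), lower in 1 mouse and higher in 3. That last call was lost in 6 of 11 alternatives. The split by Xdh called no other member in either direction. In Xdh cells Cspg4 was at 68.2, 90.9, 59.0 and 73.2 CPM against 32.2, 29.2, 59.1 and 68.2 CPM, a log2 difference of 0.25 (SE 0.22). Only 44 to 161 thinned cells of a mouse held an Xdh UMI, so a difference of this size was not detectable at this depth.

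Nrap, Selenoh and Cd72 were also called higher in cells with Ctla2a, though not in every mouse for Cd72. In cells with a Ctla2a UMI, Nrap was higher by 1.03 (SE 0.18), Selenoh by 0.49 (SE 0.08) and Cd72 by 0.35 (SE 0.07) on the log2 scale, and in cells with a Cspg4 UMI Nrap was higher by 1.10 (SE 0.20) and Cd72 by 0.40 (SE 0.06). In Cspg4 cells Cd72 was at 136, 166, 158 and 170 CPM against 107, 122, 122 and 132 CPM, higher in all 4 mice. In Ctla2a cells Cd72 was at 105 and 88.6 CPM in PRMT1FL and 149 and 181 CPM in PRMT1Cx3cr1-KO mice, against 109, 127, 122 and 127 CPM in cells without, so it was lower in both control mice and higher in the other 2. That call was lost in 4 of 11 alternatives, among them DESeq2, mouse and state together as a block (edgeR adjusted p = 0.881) and the fit without PRMT1Cx3cr1-KO mouse 2. Nrap in Ctla2a cells was lost at 1000 UMIs (edgeR adjusted p = 0.0672), and Selenoh in Ctla2a cells moved to 0.05 with mouse and state as a block (edgeR adjusted p = 0.790).

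**Figure D4:**
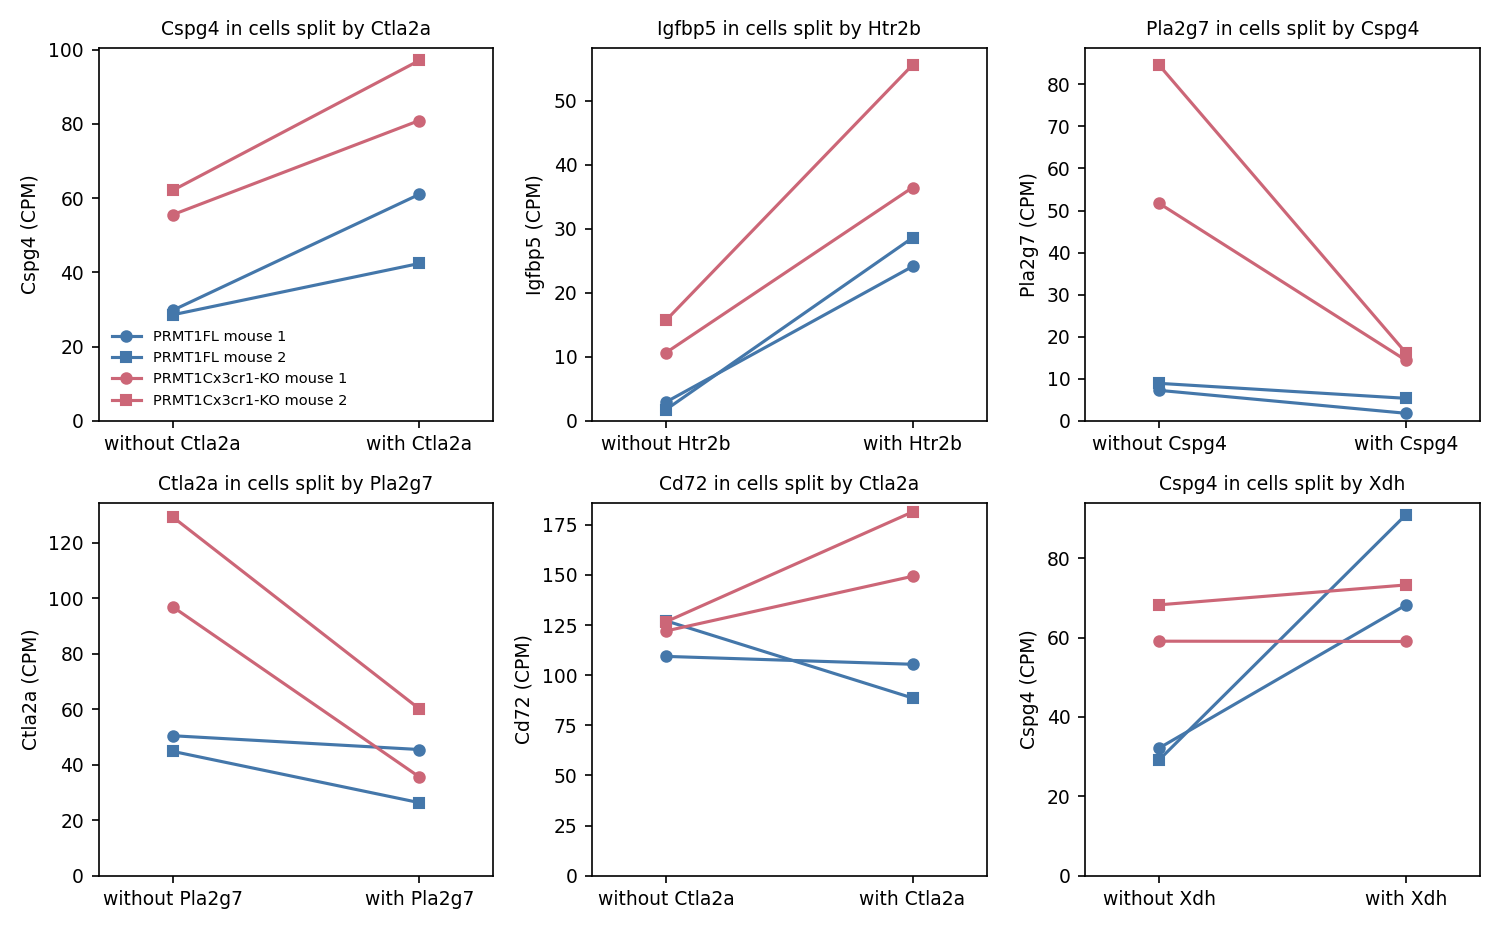
Level of a gene in microglia with and without a UMI of another gene, per mouse, in CPM at 2000 UMIs per cell. Cspg4 is higher with Ctla2a in 4 of 4 mice. Pla2g7 is lower with Cspg4 in 4 of 4 mice, in the PRMT1FL mice on 2 and 4 Pla2g7 UMIs.

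Cells with a UMI of most members were deeper before thinning than cells without. For Cspg4 the medians were 11009, 13860, 10422 and 10257 UMIs with and 6642, 7474.5, 6731 and 7270.5 UMIs without, while for Pla2g7 in the PRMT1Cx3cr1-KO mice they were 4678.5 and 5516.5 with and 7169.5 and 7908 without. The part of this depth difference in the pairs beyond what thinning removes was not tested. With mouse and state together as a block, 22 of the 41 called pairs were called again, and 12 of the 41 were called under every alternative.

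PRMT1Cx3cr1-KO cells also held more of the 10 transcripts at once. At 2000 UMIs per cell a PRMT1FL microglial cell held a UMI of 0.425 and 0.429 of the 10 genes on average, and a PRMT1Cx3cr1-KO cell of 0.705 and 0.859. Cells with 3 or more of the 10 made up 0.858 and 0.706% against 3.03 and 4.64%, and cells with none 65.0 and 64.0% against 48.4 and 40.3%. These shares follow from the higher levels that chose the genes and are given as a description.

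The other genes of the cells that held each transcript differed from member to member. The genes given here are the 5 with the smallest p among those called higher in the split by each member, and they were chosen after their values were seen. Cells with an Ehd1 UMI had higher Cxcl2 (log2 1.58), Tnfsf9 (1.57), Tnf (1.40), Gadd45b (1.02) and Nfkbia (0.78), which are genes induced through NF-kB. Cells with a Pla2g7 UMI had higher Mgst1 (log2 3.57), Mmp12 (2.80), Gdf15 (2.34), Il18bp (2.21) and Slc7a11 (2.18), among them a glutathione transferase, a macrophage elastase and the cystine transporter. Cells with a Ctla2a UMI had higher Cst7 (log2 0.85), Syngr1 (0.76) and Ctsd (0.63), the first a cystatin and the last a lysosomal protease, beside Gapdh and Fcer1g. Cst7, like Ctla2a an inhibitor of cysteine proteases, was 1 of 1782 genes called higher in this split (15.7% of those tested). Whether the 2 inhibitors share a function here was not tested.

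Gpnmb, a glycoprotein of lipid-laden macrophages, came first by p for Igfbp5 (log2 2.83), Htr2b (2.24) and Xdh (1.003). Igfbp5 cells also had higher Sox11 (5.01), Fn1 (1.44), Ctla2a (1.36) and Fabp5 (0.96), and Htr2b cells higher Ch25h (1.19), Ctla2a (1.25), Fabp5 (0.76) and Ctsd (0.46). Fn1, the gene of fibronectin, came first for Cspg4 (log2 1.32) and Nrap (0.99). Cspg4 cells also had higher Cxcl2 (0.92), Ank (0.90) and Ch25h (0.84) beside Gapdh, and Nrap cells higher Saa3 (1.98), Flt1 (1.04), Cxcl2 (0.71) and Spp1 (0.47). Selenoh cells had higher Birc5 (2.007), Pttg1 (1.90), Ube2c (1.85), Stmn1 (1.48) and H2afz (0.95), genes of dividing cells. Cd72 cells had higher Ch25h (0.68), Lpl (0.63), Cxcl16 (0.53) and Cd52 (0.41) beside Cxcl2, and Xdh cells higher Ccl5 (1.27), Ms4a7 (1.04), Apoc4 (0.83) and Apoc1 (0.67).

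Across states the genes with the most similar pattern were taken from 7123 genes by Pearson's r of log2(CPM + 1) over 28 sums (7 states of 4 mice, each library centred on its own mean); the sums share libraries, and no test is given. Selenoh was closest to Stmn1 (r = 0.993) and Cdca3 (0.989), Ctla2a to Syngr1 (0.969) and Ifitm2 (0.967), Cspg4 to Fn1 (0.960) and Colec12 (0.937), and Pla2g7 to Blvrb (0.918) and Cd300c2 (0.885). Ehd1 was closest to Clic4 (0.899) and Mapkapk2 (0.840), Cd72 to Axl (0.910) and B2m (0.904), and Htr2b to Cyp4f18 (0.888) and Serpine2 (0.882). Nrap was closest to Scpep1 (0.886) and Etl4 (0.866), Xdh to Tmem184b (0.884) and Adar (0.882), and Igfbp5 to Arsb (0.761) and Adcy3 (0.757).

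Pla2g7 was called lower in cells with Ctla2a, Cspg4 or Igfbp5 and was not called with Htr2b. Its promoter and those of the 4 genes found together are printed to show what they do and do not share near their start. Each runs from 250 bases before to 50 bases after the start in RefSeq (GRCm38.p6), 5' to 3' on the gene's strand. They are chr13:60936576-60936875 (minus strand, the first of 2 entries) for Ctla2a, chr9:56864854-56865153 (plus) for Cspg4, chr1:72874816-72875115 (minus) for Igfbp5, chr1:86111931-86112230 (minus) for Htr2b and chr17:43568201-43568500 (plus) for Pla2g7. The Pla2g7 window lies wholly inside the gene span given above, past the start of that annotation. It is therefore a promoter by the RefSeq start only. Capitals mark matches, on either strand, to the AP-1 motif TGANTCA or the antioxidant response motif TGACNNNGC; in Ctla2a both overlap.
Ctla2a: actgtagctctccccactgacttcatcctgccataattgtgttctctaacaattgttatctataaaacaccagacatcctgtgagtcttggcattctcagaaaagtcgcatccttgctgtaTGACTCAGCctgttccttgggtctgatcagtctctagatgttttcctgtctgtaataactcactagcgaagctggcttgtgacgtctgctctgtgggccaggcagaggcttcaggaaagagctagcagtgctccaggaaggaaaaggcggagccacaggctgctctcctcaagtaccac
Cspg4: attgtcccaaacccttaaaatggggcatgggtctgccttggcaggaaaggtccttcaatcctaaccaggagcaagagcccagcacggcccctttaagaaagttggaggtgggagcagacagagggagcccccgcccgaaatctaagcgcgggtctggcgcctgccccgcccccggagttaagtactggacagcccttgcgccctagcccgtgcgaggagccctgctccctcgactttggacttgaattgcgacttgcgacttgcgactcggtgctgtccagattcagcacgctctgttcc
Igfbp5: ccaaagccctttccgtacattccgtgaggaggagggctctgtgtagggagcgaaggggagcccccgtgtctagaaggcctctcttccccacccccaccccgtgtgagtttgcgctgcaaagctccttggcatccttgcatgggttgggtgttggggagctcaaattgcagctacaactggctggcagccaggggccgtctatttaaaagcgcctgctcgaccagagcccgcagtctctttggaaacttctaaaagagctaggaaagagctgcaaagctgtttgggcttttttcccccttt
Htr2b: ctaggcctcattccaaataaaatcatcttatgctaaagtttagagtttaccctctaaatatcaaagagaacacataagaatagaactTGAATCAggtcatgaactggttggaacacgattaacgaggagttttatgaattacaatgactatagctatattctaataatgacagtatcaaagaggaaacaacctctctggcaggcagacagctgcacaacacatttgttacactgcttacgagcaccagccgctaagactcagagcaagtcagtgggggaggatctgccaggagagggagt
Pla2g7: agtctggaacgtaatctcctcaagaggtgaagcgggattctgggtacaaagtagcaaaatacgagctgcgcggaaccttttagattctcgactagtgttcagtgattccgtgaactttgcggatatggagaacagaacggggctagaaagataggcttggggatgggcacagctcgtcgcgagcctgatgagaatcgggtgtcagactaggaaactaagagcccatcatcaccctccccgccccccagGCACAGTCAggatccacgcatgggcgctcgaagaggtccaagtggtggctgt

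Entries were found for 8 of the 10 genes. The AP-1 motif, searched as TGANTCA with any middle base, was in the promoters of Ctla2a (as TGACTCA) and Htr2b (as TGAATCA). This loose pattern was in 7.81% of the 32851 promoters of this length. The antioxidant response motif was in the promoters of Ctla2a, Pla2g7 and Cd72 and in 12.4% of all. The E-box CACGTG was in the promoter of Selenoh (7.15% of all promoters), the PU.1 motif GAGGAAGT in that of Cd72 (3.202% of all) and the CRE TGACGTCA in none of the 8 (1.79% of all). No motif searched was in the promoters of both Cspg4 and Igfbp5, or in more than 2 of the 4 genes found together. GC content was 41.0% in Htr2b, 49.0% in Ctla2a, 56.3% in Igfbp5 and 60.0% in Cspg4 against a median of 52.7% over all promoters. A match is a string of letters in a window and not a measured site.

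Genes related to the 10 were listed by family, partner or pathway, with earlier results of these data known, and were tested between genotypes. Of 92 listed genes 74 were tested, and edgeR called 2 of them higher in PRMT1Cx3cr1-KO microglia and 0 lower, against 0.441% and 0.159% over all genes. Both belong to the list for Selenoh. Selenom, another selenoprotein, was at 13.4 and 13.1 against 21.2 and 24.2 CPM, a log2 difference of 0.70 (SE 0.08, edgeR adjusted p = 0.0317). Txnrd1, the cytosolic thioredoxin reductase, was at 25.6 and 21.9 against 39.1 and 46.5 CPM, a log2 difference of 0.77 (SE 0.10, edgeR adjusted p = 0.0461). Neither gene was called when either PRMT1FL mouse was left out, when 0 related genes passed, and 33 and 14 related genes were called without PRMT1Cx3cr1-KO mouse 1 and mouse 2. At an unadjusted p under 0.05, 31 of the 74 passed (19.8% of all genes), and DESeq2 called 15 (5.02% of all genes). Over the 74 genes, 36 had a higher and 38 a lower fitted level, with a median log2 difference of -0.009.

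By member, 11 of the 13 tested genes of the Selenoh list had a higher fitted level, while 7 of 7 of the Cd72 list, 4 of 4 of the Htr2b list and 6 of 7 of the Ctla2a list had a lower one. Over all genes 49.1% had a higher and 50.9% a lower fitted level. Apart from Selenom and Txnrd1 none of these genes passed the test, and nothing is read from the signs. Ctla2b, the neighbour that shares sequence with Ctla2a, was at 60.5 and 58.9 against 85.2 and 75.2 CPM, a log2 difference of 0.35 (SE 0.09, edgeR adjusted p = 0.115), which did not pass the threshold. The lists for Ehd1 (4 higher, 4 lower), Pla2g7 (3 and 5), Igfbp5 (3 and 3), Cspg4 (5 and 3), Xdh (5 and 2) and Nrap (4 and 2) were mixed.

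Prmt1 transcripts were also used to split the cells. In cells with a Prmt1 UMI, Cspg4 was higher by 0.41 and Selenoh by 0.35 (edgeR adjusted p = 0.0006 for Selenoh) and Pla2g7 differed by -0.44 (edgeR adjusted p = 0.0031) on the log2 scale; the other 7 genes were not called in that split, in which 4.42% of all genes were called higher and 2% lower.

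Outside the microglia, several of the transcripts had strong carriers that the sort retained in small numbers. Pla2g7 was seen in 172 of 199 astrocyte-like cells (86.4%, 2071 CPM) and in 43.9% of 66 neutrophil-like cells. An F-like cluster led by Mrc1, H2-Eb1 and F13a1 (741 cells, median 4995 UMIs) also held several of the transcripts: Cd72 was seen in 45.9% of its cells (140 CPM), Pla2g7 in 43.6% (112 CPM), Ehd1 in 25.4% and Xdh in 12.3%. Astrocyte-like cells numbered 96, 79, 14 and 10 in the 4 mice and held 44.9, 41.5, 1.29 and 0.911% of all Pla2g7 UMIs of their library, so in the PRMT1FL libraries a large part of this transcript lay outside the microglia. Cspg4 was seen in 67.1% of 73 pericyte-like cells (656 CPM) and in 0 of the 73 endothelial-like cells. Ctla2a was seen in 57.5% of endothelial-like cells (834 CPM), and Xdh in 19.2% of them (104 CPM) and in 43.9% of neutrophil-like cells (154 CPM). Ehd1 was seen in 40.9% of neutrophil-like cells (118 CPM) and Igfbp5 in 13.6% of astrocyte-like cells (84.7 CPM). Cd72, Htr2b and Nrap were seen in 0 or 1 cell of each of the astrocyte-like, endothelial-like, pericyte-like and neutrophil-like clusters. They were also seen elsewhere: in the F-like cluster Cd72 was seen in 340, Nrap in 53 and Htr2b in 28 of the 741 cells. Cd72 was also seen in 14 of 50 cells of an unnamed cluster with Ttr and in 6 of 54 oligodendrocyte-like cells. Of the F-like cells 19.97% were marked as doublets, barcodes that may hold more than 1 cell. How much of the transcripts seen in F-like cells came from microglia in such barcodes was not tested. In the summed microglia the astrocyte markers stood at 59.2 and 64.2 CPM in PRMT1FL and 57.2 and 43.0 CPM in PRMT1Cx3cr1-KO mice. The endothelial markers stood at 53.3 to 64.5 CPM in every mouse. How much RNA of such cells entered the levels of the 10 genes in microglia was not tested.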

How the data were processed

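The deposited counts are UMIs per gene and barcode, 1 matrix per mouse; the submitters' processing notes name the mm10 build, Cell Ranger 3.1.0, Seurat 3.2.0 and Scanpy 1.5.2 as what the authors used. Libraries held 91306165 and 76943248 (PRMT1FL) and 85874289 and 99559644 UMIs (PRMT1Cx3cr1-KO). The study's stated limits were applied: a barcode needed 200 to 6000 genes and no more than 10% of its UMIs from mitochondrial genes. Cells were clustered on 2000 variable genes and 20 components (igraph 0.11.9, scikit-learn 1.9.0). The 10 members and other genes that differed between genotypes over all cells were left out, 1200 genes in all. The latter had a log2 difference above 1 in either direction at an unadjusted edgeR p under 0.05. Clusters were named from marker lists or by their leading genes. Marked doublets (6.54 to 9.15% of the cells of a library, a share set by an assumed rate and not measured) were kept and left out in an alternative. The sum over the microglia of a mouse is the unit of the genotype tests. Their p-values measure the spread between these 4 mice, whose litters are not given in the sources used here. The split tests use the sums of both sides of each mouse with the mouse as a block. Their p-values rest on a spread between mice that edgeR shares over all genes of a fit. They are therefore no measure of how the difference of a single gene varied over the 4 mice. A pair could be called although single mice ran the other way, as for Cd72 in Ctla2a cells. The alternative with mouse and state as a block treats the states of the same mouse as separate blocks.

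Sums were fitted with edgeR 4.0.16 (quasi-likelihood, TMM, low counts filtered; R 4.3.3), with Benjamini-Hochberg adjustment over all genes tested and a threshold of 0.05; the fit of the split by a member was as in the report. DESeq2 1.42.0 was an alternative. The fits were tested on simulated data. Intervals on shares are Wilson's at 95%, floors are 3 counts, and both cover counting error only. CPM levels are counts per gene from a 3' assay without length scaling and were not compared between genes.

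All 10 members are named, with the related genes that passed the test and the 2 genes most like each member; the 5 genes per member with the smallest p were added after their values were seen. The members and lists were chosen with earlier results of these data known. Promoter sequences are from RefSeq (GRCm38.p6), and Ehd1 and Xdh had no entry in the table used. Other alternatives were another thinning depth (1000 UMIs) and none, no filter on low counts, a limit of 5% mitochondrial UMIs, all cells, other clusterings, a replicate block, mouse and state as a block, and leaving out each mouse.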

Additional observations from a re-analysis of the deposited data

Results flagged for a closer look

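For 6 of the 90 ordered pairs the difference between cells with and without a transcript itself differed between genotypes, by the interaction term of edgeR with the mouse as a block; over all genes of the 10 splits the term called 0.251% higher and 0.396% lower. The genes were chosen for their genotype difference, so these values are not independent of how they were picked.

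Of these, 4 involve Cd72. In cells with a Ctla2a UMI, Cd72 was at 105 and 88.6 CPM against 109 and 127 in PRMT1FL mice and at 149 and 181 against 122 and 127 CPM in PRMT1Cx3cr1-KO mice, a difference of the log2 changes of 0.65 (SE 0.12, edgeR adjusted p = 3.83e-05). The reverse split gave 0.53 for Ctla2a in Cd72 cells (SE 0.11, edgeR adjusted p = 0.00045). In cells with a Pla2g7 UMI, Cd72 was at 114 and 127 against 109 and 124 CPM in PRMT1FL mice and at 52.5 and 59.6 against 131 and 145 CPM in PRMT1Cx3cr1-KO mice, a difference of -1.48 (SE 0.24, edgeR adjusted p = 1.86e-07). Pla2g7 in Cd72 cells gave -1.79 (SE 0.27, edgeR adjusted p = 6.40e-08). The shares of control microglia with a Pla2g7 UMI (1.32 and 1.58% at 2000 UMIs) lie below the 4.11% that 0 of 73 endothelial-like cells allows, and astrocyte-like cells held 44.9 and 41.5% of the Pla2g7 UMIs of those libraries, so a Pla2g7 UMI in a control cell cannot be told apart from free RNA and nothing is read from the control values of these splits.

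The other 2 involve Igfbp5. In Cspg4 cells the log2 change of Igfbp5 was 2.24 in PRMT1FL and 0.99 in PRMT1Cx3cr1-KO mice, with a fitted difference of -1.63 (SE 0.42, edgeR adjusted p = 0.0324). In Pla2g7 cells it was 1.80 and -1.30, with a fitted difference of -3.76 (SE 1.06, edgeR adjusted p = 0.0135), on 1, 4, 7 and 9 UMIs in the 4 mice. Over the 11 alternatives the calls with Cd72 and Pla2g7 held in 9 each, those with Cd72 and Ctla2a in 7 each, Igfbp5 with Pla2g7 in 6 and Igfbp5 with Cspg4 in 4.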

How the results depend on the processing

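The median log2 difference of the 10 genes between genotypes (1.17) stayed between 1.07 and 1.23 with each mouse left out. The counts of pairs depend on depth per cell. From 29 pairs higher, 12 lower and 6 that differ between genotypes at 2000 UMIs per cell, the counts were 12, 6 and 0 at 1000 UMIs, 63, 13 and 27 without thinning, 19, 5 and 3 with DESeq2, and 15, 7 and 2 with mouse and state together as a block. With each mouse left out they ran from 21 to 29, 5 to 12 and 2 to 6; 2 pairs differed between genotypes without PRMT1FL mouse 2 and 2 without PRMT1Cx3cr1-KO mouse 2. Without thinning 7 pairs turned direction: Pla2g7 (-0.29) and Igfbp5 (0.53) in Ehd1 cells, Ehd1 in Igfbp5 cells (0.32), Cd72 (0.29) and Nrap (0.67) in Xdh cells, and Ehd1 (0.19) and Nrap (0.28) in Selenoh cells. With mouse and state as a block Ctla2a in Selenoh cells was at -0.0013. The cause was not tested.

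Of the related genes 2 were called, against 15 with DESeq2, 24 without the filter on low counts, 1 without marked doublets, 11 over all cells and 0 to 33 with each mouse left out. Mice of the same number in the labels did not deviate together (r = -0.009 over 13843 genes). With 2 mice per genotype, this cannot settle whether the numbers pair them. A replicate block called 4 related genes, and 251 of all genes against 83 without it. The part of the differences at fixed state shares (median 103%) was 90.2% with finer clusters, 92.9% when all variable genes entered, and 101 to 104% with each mouse left out. The log2 level of the highest state relative to all microglia moved for Pla2g7 and Igfbp5 with finer clusters. It moved for Pla2g7 when all variable genes entered. Whether the highest state held the same cells was not compared. Single genotype differences moved beyond the spread for Pla2g7 (1.67) and Xdh (1.09) over all cells, Xdh (1.40) without PRMT1FL mouse 1 and Pla2g7 (2.38) without PRMT1Cx3cr1-KO mouse 2. With 2 mice per genotype and 1 to 4 UMIs of the rarest pairs in a control mouse, depth limits Igfbp5, Htr2b, Nrap and Xdh most.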
